A study of Homo sapiens with 6 samples.

Results

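The genes described here are C2H2 zinc finger genes of the distal end of the long arm of human chromosome 19. They belong to a cluster around band 19q13.43 that runs from ZNF524 to ZNF446. The list holds 52 gene names chosen by their place on the chromosome, but place alone did not define it. Other zinc finger genes of the same stretch, such as ZNF814, ZIK1 and ZNF784, are not on the list. Of 16 measured genes with a zinc finger gene's symbol left out in this way, 6 were lower (37.5%) and 1 higher (6.25%). Over all genes 10.7% were lower and 12.9% higher. The counts below are therefore not rates for every zinc finger gene of the stretch. Of the 52 names, 49 had an array row that carried their symbol alone, out of 18404 genes measured in that way. These 49 are the members counted below. ZNF547 and ZNF497 were measured only by rows shared with another gene, and ZNF132 was not analysed here. Where a gene had several rows, the row with the highest mean over all arrays stood for it, so the mean level chose the row. The list was put together with earlier results of the same arrays known, so the counts below describe these genes.

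The cells were BE(2)-C, a human neuroblastoma line in long use whose genome carries extra copies of MYCN. The treated group received 5 µM BIX01294 for 24 h (3 samples) and the other group 0.05% DMSO, the solvent, for 24 h (3 samples). BIX01294 is a small-molecule inhibitor of EHMT2 and EHMT1, enzymes that methylate lysine 9 of histone H3. All samples came from the same cell line grown in medium with dialyzed serum, and the labels do not say whether the treated samples also held DMSO. The submitters call the 3 samples of each treatment independent, without saying whether they were separate cultures, so p-values measure the spread between these samples only.

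C2H2 zinc finger proteins bind DNA through arrays of small zinc-holding domains, and many of them also carry a KRAB domain. The KRAB domain recruits the scaffold protein TRIM28 (KAP1), which brings in the histone methyltransferase SETDB1 and HP1 proteins and so represses the bound site, often a transposable element. Many of the zinc finger genes of chromosome 19 arose by repeated tandem duplication. In many human cell types the bodies of such genes are themselves covered by trimethylated H3 lysine 9, and ZNF274, encoded in this cluster, is known to bind there and recruit TRIM28 and SETDB1.

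Sequence at the start sites showed one element that many members share. The windows were the 250 bases before and 50 bases after the first listed start of each gene in RefSeq (GRCh38.p14), and 44 of the 49 members had one. The element CCGGAAGT, the core to which ETS factors bind, was searched on both strands. It occurred in 21 of 44 member windows (47.7%), against 1211 of 27305 windows of all RefSeq genes (4.44%). Those 27305 windows include genes outside the 18404 measured. The element holds the dinucleotide CpG, in which member windows were richer than all windows (values below). The counts were not matched for that. The element occurred in 6 of 28 windows of the other measured genes in the same stretch of the chromosome (21.4%). The counts were 18 of 154 windows of other ZNF genes on chromosome 19 (11.7%) and 31 of 199 windows of ZNF genes on other chromosomes (15.6%). Ancestry of the members was not analysed here. Many may have arisen by duplication, so their windows cannot be counted as independent occurrences. The following 30-base stretches are a selection, each cut so that this element lies at the same place. Each runs 5′ to 3′ on the gene's own strand, and the capitals mark the reverse complement of the element. They come from members that were lower after BIX01294.
ZNF264 (chr19:57191458-57191487, plus strand): gccggtgggggcgggACTTCCGGgttgctc
ZNF805 (chr19:57240579-57240608, plus strand): gaagcttggggcgggACTTCCGGcatttgg
ZNF419 (chr19:57487717-57487746, plus strand): cacgcaatgggcgggACTTCCGGcgtctcg
ZNF773 (chr19:57499853-57499882, plus strand): cgcgcaatgggcgggACTTCCGGcgtctcc
ZNF550 (chr19:57559846-57559875, minus strand): cgacacaggggcgggACTTCCGGcctcgct
ZNF134 (chr19:57614209-57614238, plus strand): agctctctgggcgggACTTCCGGtatcttc
ZNF671 (chr19:57727627-57727656, minus strand): gggtgcgtgggcgggACTTCCGGctcctcc
ZNF776 (chr19:57746781-57746810, plus strand): cagtataaaggtgggACTTCCGGcgtcctc
ZNF586 (chr19:57769628-57769657, plus strand): taaagtcaagccaggACTTCCGGcgtccta
The next 3 come from members that did not pass the test, and they hold the same capitals.
ZNF530 (chr19:57599873-57599902, plus strand): acttgtcggagcggaACTTCCGGcgtcctc
ZNF587 (chr19:57849829-57849858, plus strand): taacgtaaggccgagACTTCCGGggtctct
ZNF324 (chr19:58467044-58467073, plus strand): gaaccgaagggctggACTTCCGGcggtggg

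On the sense strand ACTTCCGG occurred in 19 members, and 18 of its 21 copies began within 75 bases of the start site. The stretches above are a selection from these 19 members. They include all 7 with the longer form described next, so they look more alike than the 19 do. Left out were the lower members ZNF416, ZNF551, ZNF256 and ZNF274, and ZNF787, ZNF470 and ZNF324B, which did not pass. A longer form, GGGCGGGACTTCCGG, is the longest run shared by the windows of ZNF264 and ZNF419. It was picked out after these sequences had been read, from members that fell, and was searched on both strands. It occurred in 7 of 44 member windows (ZNF134, ZNF264, ZNF419, ZNF550, ZNF671, ZNF773 and ZNF805), against 28 of 27305 windows of all RefSeq genes (0.103%). Other chromosome 19 ZNF genes held it in 1 of 154 windows, and ZNF genes elsewhere in 0 of 199. All 7 members were among the 30 lower ones with a window, and 0 of the 14 members that did not pass held it. ZNF264 and ZNF419, which define the form, are among the 7, so this split was partly set in advance and tests nothing. The shorter CCGGAAGT was held by 15 of 30 lower members and 6 of 14 others. A match describes these letters and shows no factor bound there.

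After 24 h in BIX01294 the listed members were lower as a group. Of the 49 members, 32 fell, 0 rose and 17 did not pass the test (limma, adjusted p under 0.05 over all 18404 genes). The falls were 65.3% of the members, where 10.7% of all genes were called lower, and the rises 0% of the members, where 12.9% of all genes were called higher. The median log2 change of the members, BIX01294 minus DMSO, was -0.34 with quartiles of -0.55 and -0.16, against -0.01 for all genes. The change was below 0 in 48 of 49 members, ZNF787 being the other, and in 51.6% of all genes. The falls were small: 7 members fell by more than 1.5-fold and 1, ZNF135, by more than 2-fold.

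**Figure D1:**
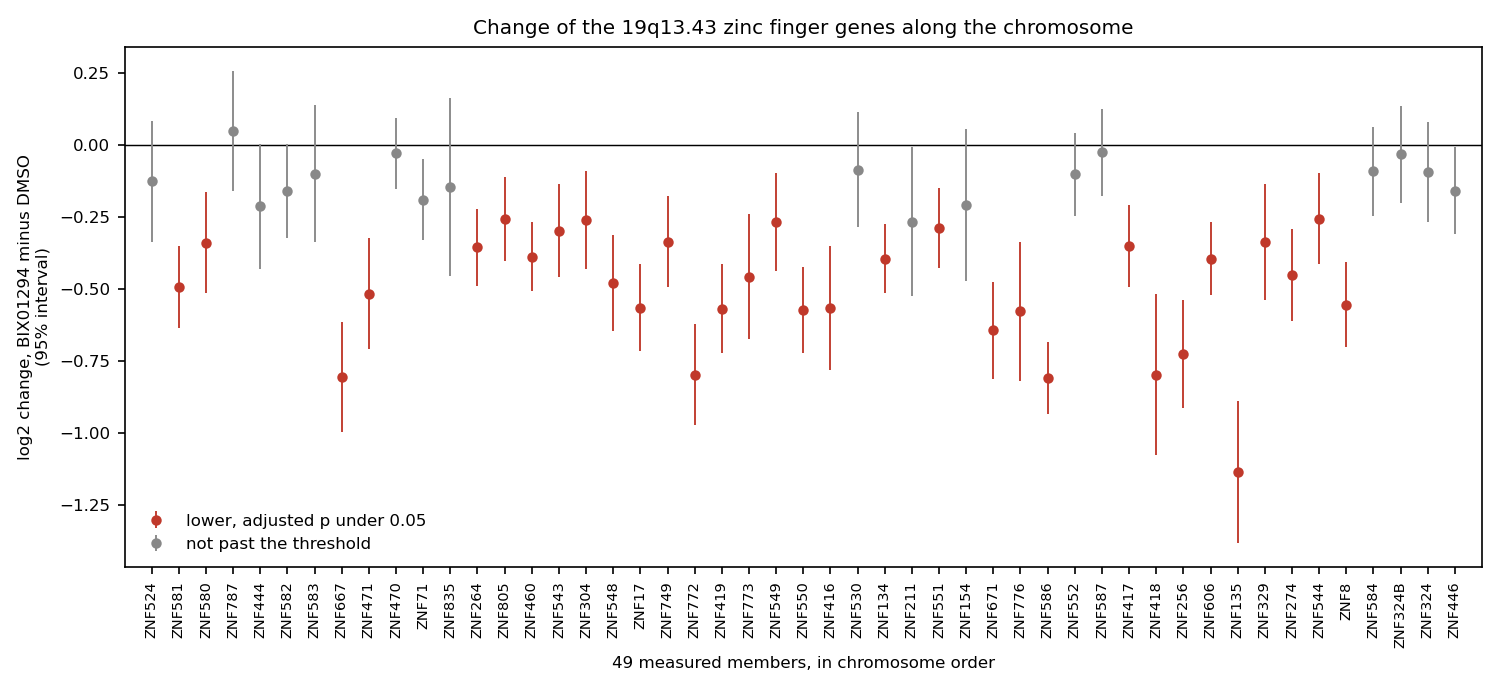
Log2 change (BIX01294 minus DMSO, y axis) of the 49 measured members in chromosome order (x axis), with points for the estimate and bars for the 95% interval of the limma fit. The 32 red members were lower at an adjusted p under 0.05, the 17 grey ones did not pass, and only ZNF787 lies above 0.

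ZNF135, a KRAB zinc finger gene and the marker of the cluster, fell most. Its array levels (log2) were 7.22, 7.23 and 7.14 in the BIX01294 arrays, against 8.46, 8.06 and 8.47 in the DMSO arrays. Every BIX01294 array lay well below the lowest DMSO array, which was replicate 2. The change was -1.13 ± 0.108 (SE), a 2.20-fold fall (adjusted p = 0.000314 in limma). The 250 bases before its start site (chr19:58058989-58059238, plus strand, GRCh38.p14) are shown because they head the member with the largest fall. The capitals mark GGGCGG, the one of 6 searched elements found in them.
ZNF135: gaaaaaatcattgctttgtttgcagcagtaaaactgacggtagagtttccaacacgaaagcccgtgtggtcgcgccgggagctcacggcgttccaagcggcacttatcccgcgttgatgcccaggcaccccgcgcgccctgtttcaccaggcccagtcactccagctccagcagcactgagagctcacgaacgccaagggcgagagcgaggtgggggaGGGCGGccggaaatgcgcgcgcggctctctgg

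ZNF586 fell with little spread in either group. It measured 8.03, 7.99 and 8.04 in the BIX01294 arrays, against 8.87, 8.84 and 8.78 in the DMSO arrays. The groups lay far apart relative to their spread, and the change of -0.81 ± 0.054 (SE), 1.75-fold lower, had the lowest adjusted p of the members (6.72e-05 in limma).

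ZNF667, whose promoter is methylated in several tumour types, measured 6.48, 6.51 and 6.42 in the BIX01294 arrays, against 7.35, 7.39 and 7.10 in the DMSO arrays. It fell 1.75-fold (-0.81 ± 0.083 SE, adjusted p = 0.000436 in limma), and the groups did not overlap. Its antisense neighbour ZNF667-AS1, a noncoding transcript and not a member, fell by 0.74 on the log2 scale (adjusted p = 0.000153 in limma). Whether the probes of this pair read 1 strand only is not given in the sources used here, so reads of one gene in the other's row were not tested.

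ZNF772 measured 7.33, 7.32 and 7.12 in the BIX01294 arrays, against 8.13, 8.08 and 7.96 in the DMSO arrays. It fell 1.74-fold, with no overlap (-0.80 ± 0.076 SE, adjusted p = 0.000325 in limma). ZNF418 had the same size of fall with a wider spread, at 6.78, 6.39 and 6.30 in the BIX01294 arrays and 7.38, 7.32 and 7.17 in the DMSO arrays. BIX01294 replicate 1 was its high array, still below all DMSO arrays, and the change was -0.80 ± 0.122 (SE; adjusted p = 0.00257 in limma).

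ZNF256 (BMZF3), a KRAB protein known to interact with TRIM28, measured 7.55, 7.49 and 7.42 in the BIX01294 arrays, against 8.33, 8.25 and 8.05 in the DMSO arrays. It fell 1.65-fold and the groups were apart (-0.73 ± 0.081 SE, adjusted p = 0.000666 in limma). ZNF671, another gene often silenced by promoter methylation in tumours, measured 6.76, 6.75 and 6.93 in the BIX01294 arrays, against 7.50, 7.51 and 7.36 in the DMSO arrays. Its fall was 1.56-fold, again without overlap (-0.64 ± 0.073 SE, adjusted p = 0.000697 in limma).

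ZNF776 varied more between arrays, with 8.37, 8.0 and 8.27 in the BIX01294 arrays and 8.83, 8.90 and 8.64 in the DMSO arrays. Its groups stayed apart and it fell 1.49-fold (adjusted p = 0.00573 in limma). ZNF550 measured 7.86, 7.91 and 7.83 in the BIX01294 arrays, against 8.34, 8.54 and 8.43 in the DMSO arrays. It fell 1.49-fold as well, with no overlap (adjusted p = 0.000718 in limma).

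ZNF419 measured 7.50, 7.40 and 7.58 in the BIX01294 arrays, against 7.98, 8.11 and 8.08 in the DMSO arrays, a fall of 0.57 on the log2 scale (adjusted p = 0.000801 in limma). ZNF416 measured 7.91, 8.22 and 8.09 in the BIX01294 arrays, against 8.71, 8.70 and 8.50 in the DMSO arrays, with a fall of the same size (adjusted p = 0.00358 in limma). ZNF17 measured 7.74, 7.70 and 7.86 in the BIX01294 arrays, against 8.34, 8.40 and 8.26 in the DMSO arrays, and fell 1.48-fold (adjusted p = 0.000798 in limma). In all of these, each BIX01294 array was below each DMSO array.

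ZNF274, which carries KRAB and SCAN domains and takes TRIM28 and SETDB1 to zinc finger genes, was among the falling members. It measured 7.60, 7.76 and 7.78 in the BIX01294 arrays, against 8.12, 8.24 and 8.14 in the DMSO arrays. The groups did not overlap, and it fell 1.37-fold (-0.45 ± 0.069 SE, adjusted p = 0.00264 in limma).

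**Figure D2:**
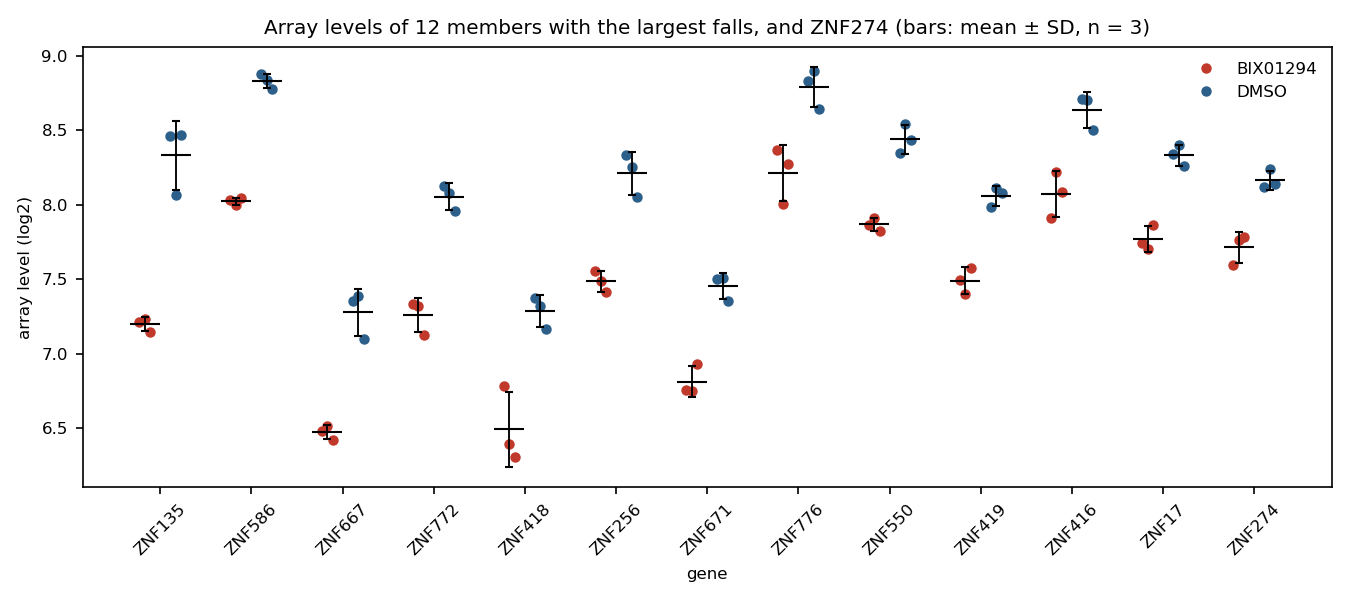
Array levels (log2, y axis) of the 12 members with the largest falls and of ZNF274 (x axis), with 1 point per array, BIX01294 in red and DMSO in blue, and bars for mean ± SD (n = 3 each). In each gene all 3 BIX01294 points lie below all 3 DMSO points, widest apart for ZNF135 at 7.20 ± 0.05 in BIX01294 and 8.33 ± 0.23 in DMSO.

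The other 19 members that fell did so by 0.26 (ZNF544) to 0.55 (ZNF8) on the log2 scale. They were ZNF581, ZNF580, ZNF471, ZNF264, ZNF805, ZNF460, ZNF543, ZNF304, ZNF548, ZNF749, ZNF773, ZNF549, ZNF134, ZNF551, ZNF417, ZNF606, ZNF329, ZNF544 and ZNF8. ZNF8 had a tight DMSO group, at 9.28, 9.45 and 9.47 in the BIX01294 arrays and 9.95, 9.96 and 9.94 in the DMSO arrays (adjusted p = 0.000774 in limma). ZNF304, a KRAB protein known to bring TRIM28 and DNA methylation to silenced promoters in colorectal cancer cells, fell by 0.26 (adjusted p = 0.0367 in limma). ZNF580, ZNF543, ZNF805, ZNF304, ZNF549, ZNF329 and ZNF544 lost their call without DMSO replicate 1, and some of them without other single arrays, with highest adjusted p-values of 0.0561 to 0.12 in limma. The other 25 falling members kept theirs in each alternative that tested them.

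ZNF471, a KRAB gene methylated in several cancers, was the one member whose mean over the arrays lay under the 90th percentile of 360 olfactory receptor genes (5.91). That family is used outside the olfactory tissue as a guide to background, since the table gives no detection call. ZNF471 measured 5.23, 5.34 and 5.43 in the BIX01294 arrays and 5.90, 5.95 and 5.69 in the DMSO arrays. Its groups did not overlap (adjusted p = 0.00343 in limma), but background could not be told apart from signal at that level, so the size of its change is not known. The remaining 48 members lay above that level, and 31 of these fell.

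**Figure D3:**
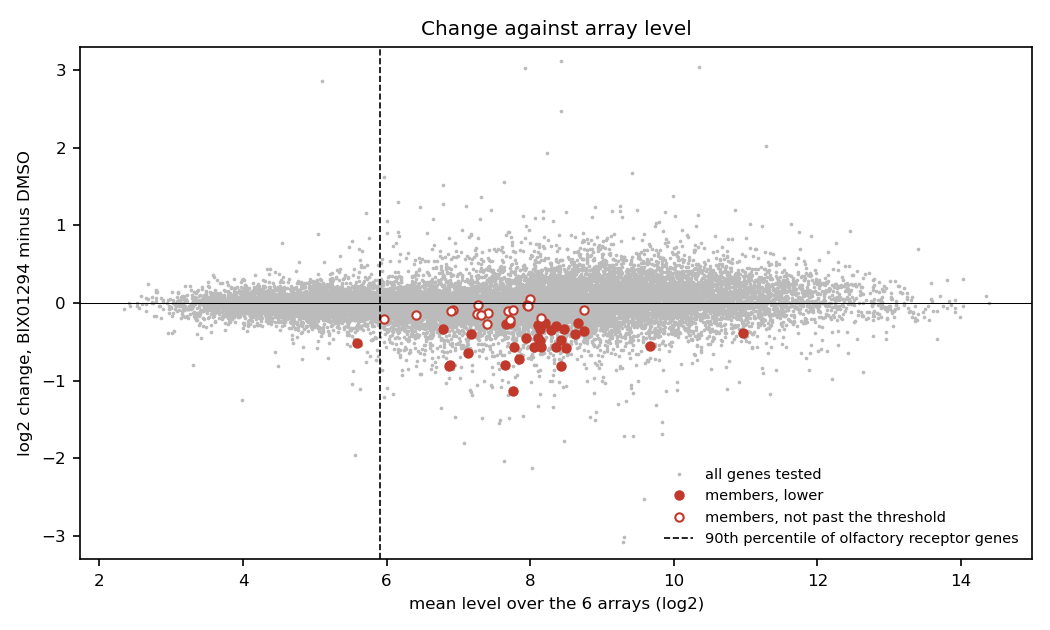
Log2 change (BIX01294 minus DMSO, y axis) against the mean level over the 6 arrays (log2, x axis) for all 18404 genes in grey and the 49 members in red, filled where the member was lower at an adjusted p under 0.05. The dashed line is the 90th percentile of olfactory receptor genes at 5.91, and all members but ZNF471 lie to its right.

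The 17 members that did not pass were ZNF524, ZNF787, ZNF444, ZNF582, ZNF583, ZNF470, ZNF71, ZNF835, ZNF530, ZNF211, ZNF154, ZNF552, ZNF587, ZNF584, ZNF324B, ZNF324 and ZNF446. The 95% interval of the change included 0 in 14 of them and lay below 0 in the other 3 (ZNF71, ZNF211 and ZNF446). Of the 17, 4 passed in at least 1 alternative: ZNF71 in 6 of 15, ZNF211 in 2 of 14, and ZNF582 and ZNF154 in 1 each. ZNF470 measured 7.25, 7.28 and 7.26 in the BIX01294 arrays, against 7.34, 7.30 and 7.24 in the DMSO arrays. Its groups overlapped, and the 95% interval of its change was -0.15 to 0.09. ZNF154, which is methylated at its promoter across many tumour types, measured 5.85, 5.88 and 5.84 in the BIX01294 arrays, against 5.81, 6.06 and 6.32 in the DMSO arrays. Its DMSO arrays spread widely around a level close to that of the olfactory receptors (adjusted p = 0.242 in limma).

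ZNF417 and ZNF587 are closely related primate genes whose KRAB proteins repress HERV-K proviruses, and their rows differed. ZNF417 measured 8.10, 8.05 and 8.19 in the BIX01294 arrays, against 8.42, 8.53 and 8.44 in the DMSO arrays, a 1.28-fold fall without overlap (adjusted p = 0.00502 in limma). ZNF587 measured 7.97, 7.98 and 7.86 in the BIX01294 arrays, against 7.93, 8.06 and 7.90 in the DMSO arrays. Its groups overlapped, with a change of -0.03 (95% interval -0.18 to 0.12, adjusted p = 0.826 in limma). A row shared by ZNF587 and ZNF587B measured 9.34, 9.35 and 9.41 in the BIX01294 arrays, against 9.41, 9.59 and 9.51 in the DMSO arrays, and did not pass in a fit over all rows with a symbol (adjusted p = 0.166 in limma). Probe sequences were not used here, so cross-reading between such paralogs was not tested, and the difference between ZNF417 and ZNF587 was not tested either.

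The pair ZNF324 and ZNF324B, named as paralogs, did not pass in either row. ZNF324 measured 7.70, 7.80 and 7.65 in the BIX01294 arrays and 7.86, 7.90 and 7.68 in the DMSO arrays. ZNF324B measured 7.85, 8.03 and 8.0 in the BIX01294 arrays and 7.91, 7.97 and 8.10 in the DMSO arrays. The groups overlapped in both, with intervals of -0.27 to 0.08 for ZNF324 and -0.20 to 0.14 for ZNF324B.

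ZNF547 and ZNF497 were measured by rows shared with a locus outside the list. The row of ZNF547, shared with TRAPPC2B, measured 6.33, 6.11 and 6.14 in the BIX01294 arrays, against 6.59, 6.50 and 6.41 in the DMSO arrays. It was 1.24-fold lower without overlap (adjusted p = 0.0272 in limma over all rows with a symbol), and which of the 2 genes it reads cannot be told apart. The row of ZNF497, shared with a pseudogene locus, measured 7.03, 7.26 and 7.03 in the BIX01294 arrays and 7.15, 7.09 and 7.37 in the DMSO arrays, and its groups overlapped.

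The groups of arrays did not overlap in 34 of 49 members, all with BIX01294 below DMSO, against 18.7% of all genes in that direction. These were the 32 members called lower, plus ZNF582 and ZNF71. Over the members, the median SD within a group was 0.08 for BIX01294 and 0.09 for DMSO on the log2 scale, beside the median change of -0.34. Set against the DMSO mean, 48, 44 and 46 of the 49 members were lower in BIX01294 replicates 1, 2 and 3, with medians of -0.37, -0.31 and -0.29. In the same arrays the median over all genes lay between -0.03 and 0.03. Among the DMSO arrays, replicate 3 was the low one, with 36 of 49 members below the DMSO mean and a median of -0.05.

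Members called lower were found in each of 4 runs along the cluster. The 49 members were split by chromosome order into runs of 12, 12, 12 and 13 genes. In the first run, from ZNF524 to ZNF835, 4 of 12 fell (median -0.17). In the second, from ZNF264 to ZNF549, all 12 fell (median -0.37). In the third, from ZNF550 to ZNF587, 7 of 12 fell (median -0.34), and in the last, from ZNF417 to ZNF446, 9 of 13 fell (median -0.35). The 4 members nearest to the chromosome end, ZNF584, ZNF324B, ZNF324 and ZNF446, did not pass, whereas the 9 before them, from ZNF417 to ZNF8, all fell. Over all genes 10.7% were called lower, and 4 genes without a call are too few to mark the end of the cluster. The differences between these runs were not tested. Across the 49 members, Spearman's rho between chromosome order and log2 change was -0.08, and between mean level and log2 change -0.14. Neighbours share arrays and may share ancestry.

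Other genes of the same stretch of the chromosome were more often lower than higher. Of 33 measured genes between the first and last member that are not on the list, 7 fell, 2 rose and 24 did not pass (median -0.08). That is 21.2% lower and 6.06% higher, beside 10.7% and 12.9% over all genes. The change was below 0 in 25 of the 33 (75.8%), beside 51.6% of all genes. Among the 33, 16 carry a zinc finger gene's symbol, antisense transcripts included, with 6 lower (37.5%) and 1 higher (6.25%). The zinc finger genes that fell were ZIK1 (-0.62 ± 0.061 SE), ZNF814 (-0.59 ± 0.140 SE), ZSCAN18 (-0.53 ± 0.091 SE) and ZFP28 (-0.38 ± 0.062 SE), with ZNF667-AS1 and ZNF606-AS1. ZSCAN22 rose by 0.21 (adjusted p = 0.0319 in limma).

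The other 17 genes of the stretch have no zinc finger symbol, and 1 fell and 1 rose (5.88% each). Their median level was 5.19, under the background guide of 5.91, against 7.94 for the members. Falls in the dimmer of these 17 could go unseen. VN1R1, a vomeronasal-type receptor gene that lies among the members, measured 6.45, 6.08 and 6.04 in the BIX01294 arrays and 7.13, 7.02 and 7.0 in the DMSO arrays. It was 1.81-fold lower without overlap (adjusted p = 0.00107 in limma). The splicing factor gene U2AF2 rose 1.22-fold (adjusted p = 0.00859 in limma).

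Falls were also common among the other ZNF genes of chromosome 19, and less so on other chromosomes. Of 181 other ZNF genes on chromosome 19, 93 fell (51.4%) and 2 rose (1.1%), with a median of -0.27. Of 257 ZNF genes on other chromosomes, 44 fell (17.1%) and 16 rose (6.23%), with a median of -0.04. Over all genes 10.7% were called lower and 12.9% higher, with a median of -0.01. The differences between these lists were not tested, and genes of a family are not independent.

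**Figure D4:**
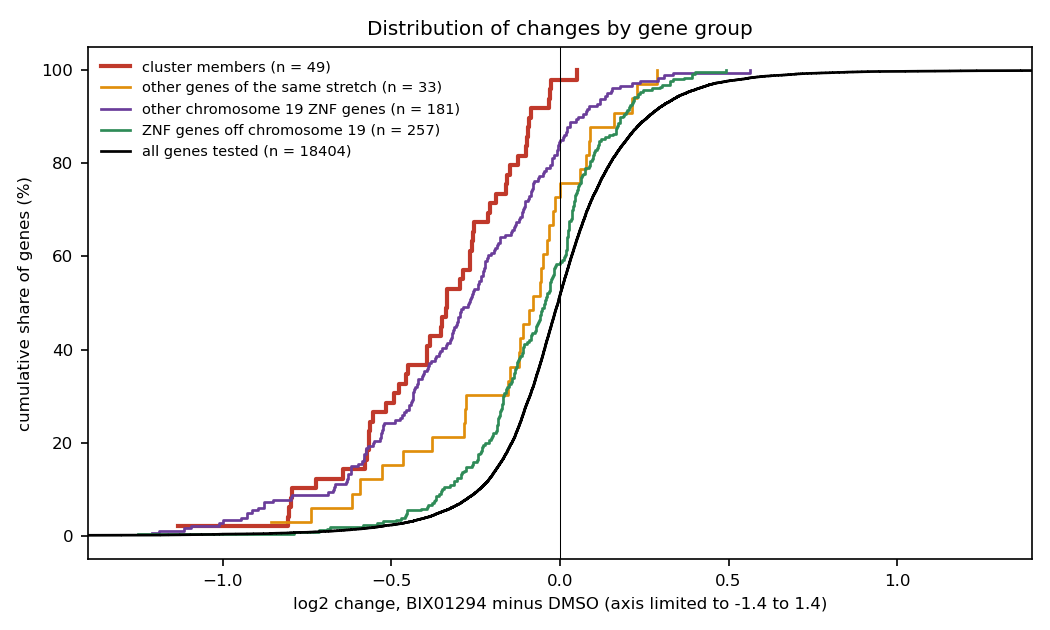
Cumulative share of genes (%, y axis) by log2 change (BIX01294 minus DMSO, x axis) for the 49 members, 33 other genes of the stretch, 181 other chromosome 19 ZNF genes, 257 ZNF genes elsewhere and all 18404 genes. The members and the other chromosome 19 ZNF genes run farthest to the left, with medians of -0.34 and -0.27, against -0.01 for all genes.

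The start windows of the members were rich in CpG, the dinucleotide that DNA methylation targets. Observed over expected CpG was above 0.6 in 41 of 44 windows (93.2%, median 0.83), against 48.9% of all windows (median 0.58). The median was 0.83 in the falling members and 0.82 in those that did not pass, and rho between CpG and log2 change was -0.05 over 44 members. GGGCGG, which SP1 binds, occurred in 23 of 30 falling members (76.7%), 6 of 14 others (42.9%) and 44.6% of all windows. It is contained in the longer element above. CACGTG, bound by MYC and related factors, occurred in 3 member windows (6.82%, against 7.43% of all windows). TGACGTCA and AAGATGGC occurred in 1 member window each and the NRF1 palindrome in 0, against 1.98%, 3.03% and 1.36% of all windows.

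The machinery that KRAB zinc finger proteins use held 4 falls and 1 rise. Of 22 measured genes of a list of 24, 4 fell, 1 rose and 17 did not pass. That is 18.2% lower and 4.55% higher, beside 10.7% lower and 12.9% higher over all genes, and the median was 0.04. SETDB1, the H3 lysine 9 methyltransferase recruited through TRIM28, measured 8.95 ± 0.05 in BIX01294 and 9.46 ± 0.06 in DMSO (SD, n = 3 each) and fell 1.43-fold (adjusted p = 0.000753 in limma). ATF7IP, the partner that stabilises SETDB1, measured 10.80 ± 0.04 in BIX01294 and 11.38 ± 0.02 in DMSO (SD, n = 3 each) and fell by 0.58 on the log2 scale (adjusted p = 0.000258 in limma). The histone deacetylase HDAC1 fell by 0.37 and MORC2, which works with the HUSH silencing complex, by 0.25 on the log2 scale.

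TRIM28 itself measured 10.10 ± 0.05 in BIX01294 and 9.94 ± 0.07 in DMSO (SD, n = 3 each), and the change of 0.16 did not pass (adjusted p = 0.0927 in limma). EHMT2, a target of the inhibitor, measured 8.47 in both groups, and BIX01294 acts on the enzyme, so its transcript checks no label. UHRF1, which reads methylated H3 lysine 9 and hemimethylated DNA, rose by 0.46 in its brighter row and differed by -0.09 in a second row that did not pass. A second row of ATRX fell by 0.29 while the brighter one, at -0.22, did not pass.

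Markers of the labelled cell type lay above the background guide. All 10 measured sympathoadrenal markers, MYCN included, lay above the olfactory receptor level of 5.91, and 0 of 3 blood cell and 1 of 3 epithelial markers did. Among the sympathoadrenal markers 4 were lower after BIX01294 (PHOX2A, GATA3, CHGA and STMN2), 1 was higher (ISL1) and the median log2 change was -0.11. That is 40% lower and 10% higher in a short list, beside 10.7% lower and 12.9% higher over all genes. The summed log2 level of these 10 was 110.65 to 111.04 in BIX01294 and 111.45 to 111.74 in DMSO, without overlap. Of 7 mesenchymal or Schwann cell markers 5 lay above 5.91. After BIX01294, 3 of the 7 were higher (VIM, CD44 and S100B, 42.9%) and 2 lower (LUM and DCN, 28.6%). The summed log2 level of those 7 was 54.23 to 54.71 in BIX01294 and 54.30 to 55.36 in DMSO, and overlapped. The part of either marker list in the falls of the zinc finger genes was not tested. In bulk RNA, fewer cells that express a gene and less RNA per cell cannot be told apart.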

How the data were processed

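RNA of 6 samples was measured on Affymetrix gene-level arrays, 1 per sample. The deposited table holds log2 values per transcript cluster, the scale being read from the values (1.93 to 14.93, array medians 6.94 to 7.01). Partek is the tool named, per the submitters' processing notes; how background was corrected, arrays were normalized and probes summarized is not given in the sources used here. Any normalization that equalises arrays would hide a change common to most transcripts. Precision is limited by having 3 arrays a group.

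Of 32321 rows, 19158 had 1 gene symbol in the platform annotation, and the highest-mean row stood for each of 18404 genes. The fit used limma 3.58.1 (R 4.3.3) on the unaltered values, with treatment as the only term, two-sided, Benjamini-Hochberg over all 18404 genes, threshold 0.05. RefSeq (GRCh38.p14) gave gene order and start windows.

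The members and lists were chosen with earlier results of these data known. Named per array were ZNF135, up to 12 members with the largest called change in each direction, and ZNF274; ZNF587, ZNF417, ZNF324, ZNF324B, ZNF470, ZNF154, ZNF471, ZNF8 and VN1R1 were picked with their values in view. Alternatives tried were 2 scalings, 3 filters on dim genes, the mean of a gene's rows, all rows with a symbol, a variance trend, weights per array, a block for the replicate number, and leaving out each array.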

Additional observations from a re-analysis of the deposited data

How the results depend on the processing

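The count of members that fell (32 of 49) kept to within 1.5 times in all alternatives run, and 0 members rose in any of them. It was 33 after quantile normalization (12.4% of all genes lower) and 29 after centring each array on its median (8.35% of all genes lower). Among genes above the median level it was 27 of 34 members (20.6% of those genes lower). Without single arrays it was 26 to 34 (7.16% to 9.88% of all genes lower). The members' median of -0.34 lay between -0.37 and -0.32 without single arrays. The median of all genes was 0.03 after centring, -0.01 after quantile normalization and -0.01 as deposited.

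With the replicate number as a block 30 members fell (8.99% of all genes lower). ZNF329 and ZNF544 lost their call in that fit. Same-numbered arrays had deviation correlations of 0.125, -0.106 and 0.045. Whether the numbers pair the samples cannot be told from these values. The sign of 5 members that had not passed turned: ZNF470 (0.0047), ZNF587 (0.0075) and ZNF324B (0.0015) after centring, which adds 0.0333 to every gene alike, and ZNF324B with array weights (0.0094). Without single arrays, ZNF787 ran from -0.0256 to 0.1427, ZNF835 from -0.2248 to 0.0016, ZNF587 from -0.0557 to 0.021 and ZNF324B from -0.0709 to 0.024, and the cause of these turns was not tested. Leaving out paralogs by protein identity was not run, since no protein table was used here. Levels near background limit ZNF471 and ZNF154.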
